A study of Mus musculus with 30 samples.

Results

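The mitochondrial ribosomal protein genes were followed in cultured mouse adipocytes exposed to indoxyl sulfate or oxidized low-density lipoprotein, with and without pNaKtide. All 78 genes whose symbols begin with Mrpl or Mrps and a number were taken, after 5 pseudogenes of the same name were left out. They belonged to the 20139 genes with more than 14 counts summed over the 30 libraries, out of 54232 genes in the count table. Of the 78 genes, 49 are named for the large and 29 for the small subunit of the ribosome. No gene came near the count limit, since the lowest total was 158 for Mrpl53 and the next lowest was 2725, and no gene of these names was left out by it.

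Mitochondria keep their own ribosome, which translates the few proteins still encoded by mitochondrial DNA, all of them subunits of the respiratory chain and ATP synthase. Its RNAs come from mitochondrial DNA, whereas all of its proteins are made from nuclear genes, translated in the cytosol and imported. Some of the proteins descend from bacterial ribosomal proteins and others were added in the mitochondrial lineage, and adipocytes raise their mitochondrial content as they differentiate.

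All groups were 3T3-L1 cells, a single clonal line of mouse preadipocytes, and all had 5 days in adipogenic medium with insulin, dexamethasone, isobutylmethylxanthine and indomethacin. The 6 groups of 5 libraries were Control, without further additions, pNaKtide at 0.7 μM, indoxyl sulfate (IS) at 100 μM, IS with pNaKtide at the same doses, oxidized low-density lipoprotein (oxLDL) at 50 μg/mL, and oxLDL with pNaKtide at the same doses, given for 5 days by the labels, whereas the study's methods describe a shorter exposure that followed the adipogenic medium. IS is a uremic toxin, and pNaKtide is a cell-permeant peptide derived from the Na,K-ATPase that blocks its signaling through Src. Nothing in the labels says that replicates were separate cultures, so p-values measure the spread between these libraries, which may be technical.

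Library totals ranged from 6945498 to 15159877 counts, and the 78 genes held 0.355% to 0.472% of the counts of a library. Adipocyte markers were high, with a Control median of 1096 CPM (counts scaled to library size by TMM) for Adipoq, the adiponectin gene, while Ptprc, a marker of all leukocytes, had no count and Adgre1 of macrophages, Cdh5 of endothelium and Epcam of epithelium had 4, 6 and 17 counts over all libraries. Cd68, also a macrophage marker, had 1569 counts and stood at 3.118 to 7.226 CPM in the libraries. Krt18 of epithelium had 90 counts and Pecam1 of endothelium 79. Preadipocyte genes were still present, with a Control median of 112 CPM for Pdgfra. The 9 adipocyte markers together had a median of 15530 CPM in Control (12830 to 16250), 13500 with oxLDL (12230 to 16300) and 16310 with oxLDL and pNaKtide (15260 to 17390), and the 5 preadipocyte markers 427.1, 357.4 and 408.7 CPM. The adipocyte sum was lowest in the IS groups, with medians of 12320 CPM with IS (10760 to 13600) and 12860 with IS and pNaKtide (11980 to 13890), where the preadipocyte medians were 332.8 and 340.3 CPM. With pNaKtide alone the medians were 15720 (14070 to 18060) and 355.5 CPM. Control replicate 1, IS replicate 4 and replicate 4 of the group with oxLDL and pNaKtide stood apart from their groups. A principal component analysis of 12580 genes put 64.4% of the variance on its leading axis, where Control replicate 1 lay at -25.8, away from its group at 6.48 to 29.9, and IS replicate 4 at 28.2, away from its group at -36.7 to -23.2. Replicate 4 with oxLDL and pNaKtide lay at 67.5, beyond its group at 14.5 to 33.25, and was the smallest library. Counts of called genes without Control replicate 1 and IS replicate 4 are given beside the counts from all libraries where they differed by over 1.5 times, and beside that for oxLDL against Control.

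By the deposited FPKM, Mrpl12 stood highest, at 157 ± 38.3 FPKM (SD, n = 30 libraries). Its product stands in the flexible stalk that recruits translation factors. Mrps6, a small-subunit protein, followed at 106 ± 13.3 FPKM and Mrpl28, a large-subunit protein, at 75.5 FPKM. Reads of Mrps6 may in part belong to Slc5a3, which overlaps it on the same strand. At the low end were Mrpl48 at 2.04, Mrps10 at 1.92 and Mrpl53 at 0.537 FPKM. This order depends on the gene lengths behind the FPKM, which the sources used here do not state and which do not match the annotated coding transcripts. Mrps10 had 15.7 CPM over a longest transcript of 1113 bases, and by such lengths Mrps6 (163 CPM, 846 bases) would stand above Mrpl12 (243 CPM, 1316 bases). The genes lie on 17 chromosomes, and 42 overlap another annotated gene, for which reads may be shared because the strand setting of the counting is not given in the sources used here. Reads of Mrpl23, Mrpl48 and Mrps36 could also be split with pseudogenes of the same names, of which Mrpl23-ps1 had 4780 counts and Mrpl48-ps 2436.

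The start regions of the genes carried short motifs of factors known for nuclear genes of mitochondria. RefSeq promoter windows of build GRCm38.p6, from 250 bases before to 50 after a start, were found for 69 of the 78 genes, in 75 windows, and 9 genes had none. The letters searched, on both strands, were GCGCA, any base and GCGC for NRF1, CCGGAAG for the ETS family that includes the nuclear respiratory factor GABP, AAGATGGC for YY1 and GGGCGGG for Sp1. NRF1 letters stood in 17.3% of the windows of these genes and in 4.6% of all 32851 windows. ETS letters stood in 34.7% against 8.86%, YY1 letters in 16% against 2.75%, and Sp1 letters in 42.7% against 25.6%. Any of the 4 stood in 77.3% against 33.8%, and hits of different motifs overlapped in 1 window. All windows were those of 27025 genes, neither limited to the genes tested nor matched for GC content. The 150 bases before the start are shown for 6 genes, those with the largest change between the oxLDL groups among the 14 called there that had a motif in this stretch, a RefSeq start within 30 bases of the annotated one and no more than 30 exon bases before it. Capitals mark the motif, and each reads 5′ to 3′ on the strand of its gene.
Mrpl52: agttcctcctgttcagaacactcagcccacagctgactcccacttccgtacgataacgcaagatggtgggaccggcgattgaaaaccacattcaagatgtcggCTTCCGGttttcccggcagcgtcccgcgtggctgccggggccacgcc
Mrps16: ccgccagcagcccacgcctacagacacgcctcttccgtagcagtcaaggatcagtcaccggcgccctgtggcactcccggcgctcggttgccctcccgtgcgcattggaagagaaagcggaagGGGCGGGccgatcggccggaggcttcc
Mrps15: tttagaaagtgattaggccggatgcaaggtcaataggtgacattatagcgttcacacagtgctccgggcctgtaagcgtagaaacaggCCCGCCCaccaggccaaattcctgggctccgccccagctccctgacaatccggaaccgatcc
Mrps18a: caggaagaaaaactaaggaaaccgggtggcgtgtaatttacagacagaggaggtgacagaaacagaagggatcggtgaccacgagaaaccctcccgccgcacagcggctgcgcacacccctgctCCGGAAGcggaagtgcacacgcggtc
Mrpl58: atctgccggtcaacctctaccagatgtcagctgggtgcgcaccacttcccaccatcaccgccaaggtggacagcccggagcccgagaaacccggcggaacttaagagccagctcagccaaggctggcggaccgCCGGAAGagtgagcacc
Mrps12: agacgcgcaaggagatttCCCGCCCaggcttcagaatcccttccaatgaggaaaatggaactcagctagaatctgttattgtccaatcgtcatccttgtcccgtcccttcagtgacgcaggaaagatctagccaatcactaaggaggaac
They lie at chr14:54426759-54426908 (plus strand), chr14:20393635-20393784 (minus), chr4:126046778-126046927 (plus), chr17:46110854-46111003 (plus), chr11:115403602-115403751 (plus) and chr7:28741822-28741971 (minus), in the order shown. Mrpl52, Mrps18a and Mrpl58 held ETS letters and the other three Sp1 letters. A match of letters is a description of the window and not evidence of binding.

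By group mean, the summed level of the 78 genes was lowest with oxLDL and highest with oxLDL and pNaKtide. In Control it was 3364 CPM in replicate 1 and 4367, 4277, 4395 and 4413 in the others. With oxLDL it was 3481, 3440, 4045, 3874 and 3490 CPM. With oxLDL and pNaKtide it was 4416, 4239, 4794, 5426 and 4736 CPM, so that these 2 groups did not overlap, while both overlapped the Control range. The oxLDL group did so only through Control replicate 1, and the other Control libraries lay above every oxLDL library. The IS libraries summed to 3552, 3663, 3752, 4443 and 3583 CPM, the fourth standing above the rest, and those with IS and pNaKtide to 3661 to 3967 CPM. Without the fourth IS library the IS mean was 3637.5 CPM, below the oxLDL mean of 3666 CPM. With pNaKtide alone the libraries divided, at 5016 and 5092 CPM in replicates 1 and 2 and 3964 to 4268 in the others. In bulk samples, a lower level in each cell and fewer cells that express the genes cannot be told apart.

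A measure of the libraries as a whole broadly moved with this sum, though not in the order of every library. It is the median log2 CPM, relative to the mean of all libraries, of 3079 other genes with transcripts under 1500 bases minus that of 3781 genes over 4000 bases. It ran from -0.53 to -0.14 with oxLDL and from 0.13 to 0.88 with oxLDL and pNaKtide. Control replicate 1 stood at -0.49 and the other Control libraries reached 0.30, and IS replicate 4 stood at 0.32 while the other IS libraries lay between -0.42 and -0.28. The 78 genes had a median transcript length of 1327.5 bases, against 2362 for the genes tested. The part of this composition in the results for the 78 genes was not tested, and comparisons in which genes were called are also given with the trend over GC content and length, or over GC content alone, removed from each library.

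**Figure D1:**
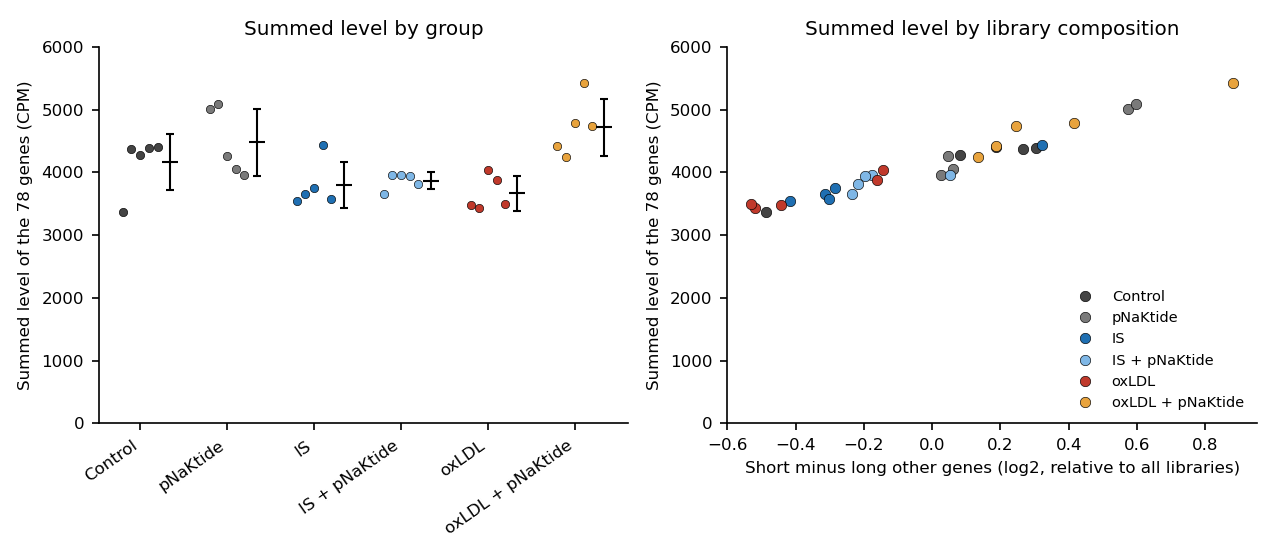
Left, the summed level of the 78 genes (CPM) in each library by group, with the mean and SD of the 5 libraries beside the points. Right, the same sum against the log2 difference between short and long other genes in each of the 30 libraries. The oxLDL libraries lie at 3440 to 4045 CPM and the libraries with oxLDL and pNaKtide at 4239 to 5426 CPM. Libraries with a higher sum mostly had a higher value of the difference, with exceptions. Replicate 5 with oxLDL and pNaKtide (4736 CPM) had 0.24 and IS replicate 4 (4443 CPM) had 0.32.

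The first comparison asked what oxLDL did to these genes. Of the 78 genes, 28 fell and 6 rose at an adjusted p under 0.1 by edgeR's quasi-likelihood test, beside 18% of all genes tested that fell and 18.1% that rose, so that the share that fell was 35.9% and the share called in either direction 43.6% against 36%. The median log2 fold change was -0.16, against 0.04 for all genes tested. Groups did not overlap for 4 genes above and 1 below Control, where 4.83% and 3.52% of all genes did not. Libraries scaled by their size alone moved the median of all genes to 0.17 and gave 16 lower and 10 higher, beside 11.3% and 24.6% of all genes in that fit. Among genes with more than 14 counts in every library, which leaves 77 of the 78, 28 were lower and 6 higher, beside 30% and 27.9% of all such genes, so that the share called in either direction no longer lay above that of all genes (58%). The count of 34 was 22 without Control replicate 2, Control replicate 4 or oxLDL replicate 2, beside 24.7% to 26.2% of all genes in those fits, and 44 without Control replicate 1, beside 45.9%. Without Control replicate 1 and IS replicate 4 it was 48, with 42 lower and 6 higher, beside 47.6% of all genes. Of the 9 adipocyte markers, Cebpa, Cfd and Cidec were lower with oxLDL and none was higher by edgeR's test, and of the 5 preadipocyte markers Dlk1 was lower. The part of these marker changes in the results was not tested.

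Examples from the large subunit follow, with and without a bacterial counterpart. Mrpl23, whose bacterial counterpart lies at the exit of the peptide tunnel, had 15.9, 22.1, 20.3, 23.4 and 19.2 CPM in Control and 13.6, 13.4, 14.95, 15.1 and 12.0 with oxLDL. All oxLDL libraries lay below all Control libraries, and the log2 fold change was -0.55 ± 0.14 (SE; edgeR, adjusted p = 0.00997). Mrpl54, a protein of the large subunit without a bacterial counterpart, fell from 37.7 ± 8.59 to 25.3 ± 4.34 CPM (SD, n = 5), at a log2 fold change of -0.58 ± 0.18 (edgeR, adjusted p = 0.0180). Its Control libraries held 23.7, 43.0, 35.3, 44.7 and 41.7 CPM and those with oxLDL 22.9, 22.3, 29.8, 30.3 and 21.4, so that the groups overlapped through Control replicate 1.

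Mrpl58 (also known as Ict1), which frees peptides from stalled mitochondrial ribosomes, held 19.1, 28.9, 23.2, 28.8 and 27.6 CPM in Control and 18.8, 15.5, 20.01, 21.3 and 16.2 with oxLDL. It fell by 0.48 on the log2 scale (SE 0.13; edgeR, adjusted p = 0.0120), with an overlap of the groups that again came from Control replicate 1. Mrpl2, a protein near the catalytic centre, went from 61.9 ± 11.1 to 44.4 ± 5.66 CPM, Mrpl28 from 108 ± 24.0 to 77.9 ± 11.2 and Mrpl52 from 30.3 ± 5.95 to 21.8 ± 2.87 (SD, n = 5 each). These 3 each had a log2 fold change of -0.48, with adjusted p = 0.0140, 0.0170 and 0.0402 by edgeR.

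Of the stalk proteins, Mrpl12, Mrpl11 and Mrpl10 all fell. Mrpl12 had 183, 289, 258, 292 and 294 CPM in Control and 178, 169, 233, 208 and 182 with oxLDL, a log2 fold change of -0.44 ± 0.14 (edgeR, adjusted p = 0.0205). Mrpl11 changed by -0.33 ± 0.11 and Mrpl10 by -0.24 ± 0.09 on the log2 scale (edgeR, adjusted p = 0.0263 and 0.0436). Mrps12, the decoding-centre protein of the small subunit, went from 23.6 ± 5.42 to 19.6 ± 2.06 CPM and did not pass the test (edgeR, adjusted p = 0.199). Of the 3 paralogs of bacterial S18, Mrps18a, whose product sits in the large subunit, changed by -0.43 ± 0.13, Mrps18b by -0.30 ± 0.11 and Mrps18c by -0.05 ± 0.10 on the log2 scale, with edgeR adjusted p = 0.0184, 0.0423 and 0.722, and differences between the paralogs were not tested. Mrps30, another protein of the large subunit despite its name, stood at 43.3 ± 5.69 and 37.7 ± 3.02 CPM (edgeR, adjusted p = 0.114). Mrps36, whose product is now placed in the oxoglutarate dehydrogenase complex and not in the ribosome, stood at 18.4 ± 1.69 and 17.5 ± 2.12 CPM (edgeR, adjusted p = 0.662).

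A small group went the other way. Mrpl1, of the mobile stalk beside the exit site for tRNA, had 18.4, 14.1, 21.2, 11.3 and 12.4 CPM in Control and 24.6, 29.8, 24.1, 20.6 and 27.3 with oxLDL. Its log2 fold change was 0.71 ± 0.22 (edgeR, adjusted p = 0.0215), and the groups overlapped only between Control replicate 3 and oxLDL replicate 4. Mrpl50, added to the large subunit in the mitochondrial lineage, had 41.5, 32.7, 38.01, 32.5 and 37.2 CPM in Control and 51.4, 56.7, 50.8, 42.6 and 54.5 with oxLDL, without overlap (log2 fold change 0.49 ± 0.12; edgeR, adjusted p = 0.00867). Mrpl47, Mrps22 and Mrpl18 also rose without overlap, by log2 fold changes of 0.43 ± 0.13, 0.42 ± 0.12 and 0.24 ± 0.08 (edgeR, adjusted p = 0.0155, 0.0153 and 0.0288). Mrpl32 rose by 0.22 ± 0.10 (edgeR, adjusted p = 0.0979). Some of these calls rested on single libraries of the compared groups. Of the 10 fits without 1 of them, Mrpl32 was called in 3, Mrpl10 and Mrpl52 in 6, Mrps18b in 7 and Mrpl18 in 9, with edgeR adjusted p of at most 0.225.

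By origin, 12 of the 30 large-subunit genes with a bacterial counterpart fell and 4 rose, with a median log2 fold change of -0.12. Of the 21 large-subunit genes of mitochondrial origin, 7 fell and 1 rose (median -0.17). Mrps18a was counted among these, since its place in the large subunit has no bacterial counterpart although its sequence is related to S18. Mrps18b was counted as having a bacterial counterpart by its relation to S18, whatever its place in the subunit, so the classes follow no single rule. In the small subunit 7 of 17 genes with a bacterial counterpart fell and none rose by edgeR (median -0.24), and of the 9 of mitochondrial origin 2 fell and 1 rose (median -0.09). These counts are a description, and differences between the classes were not tested.

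**Figure D2:**
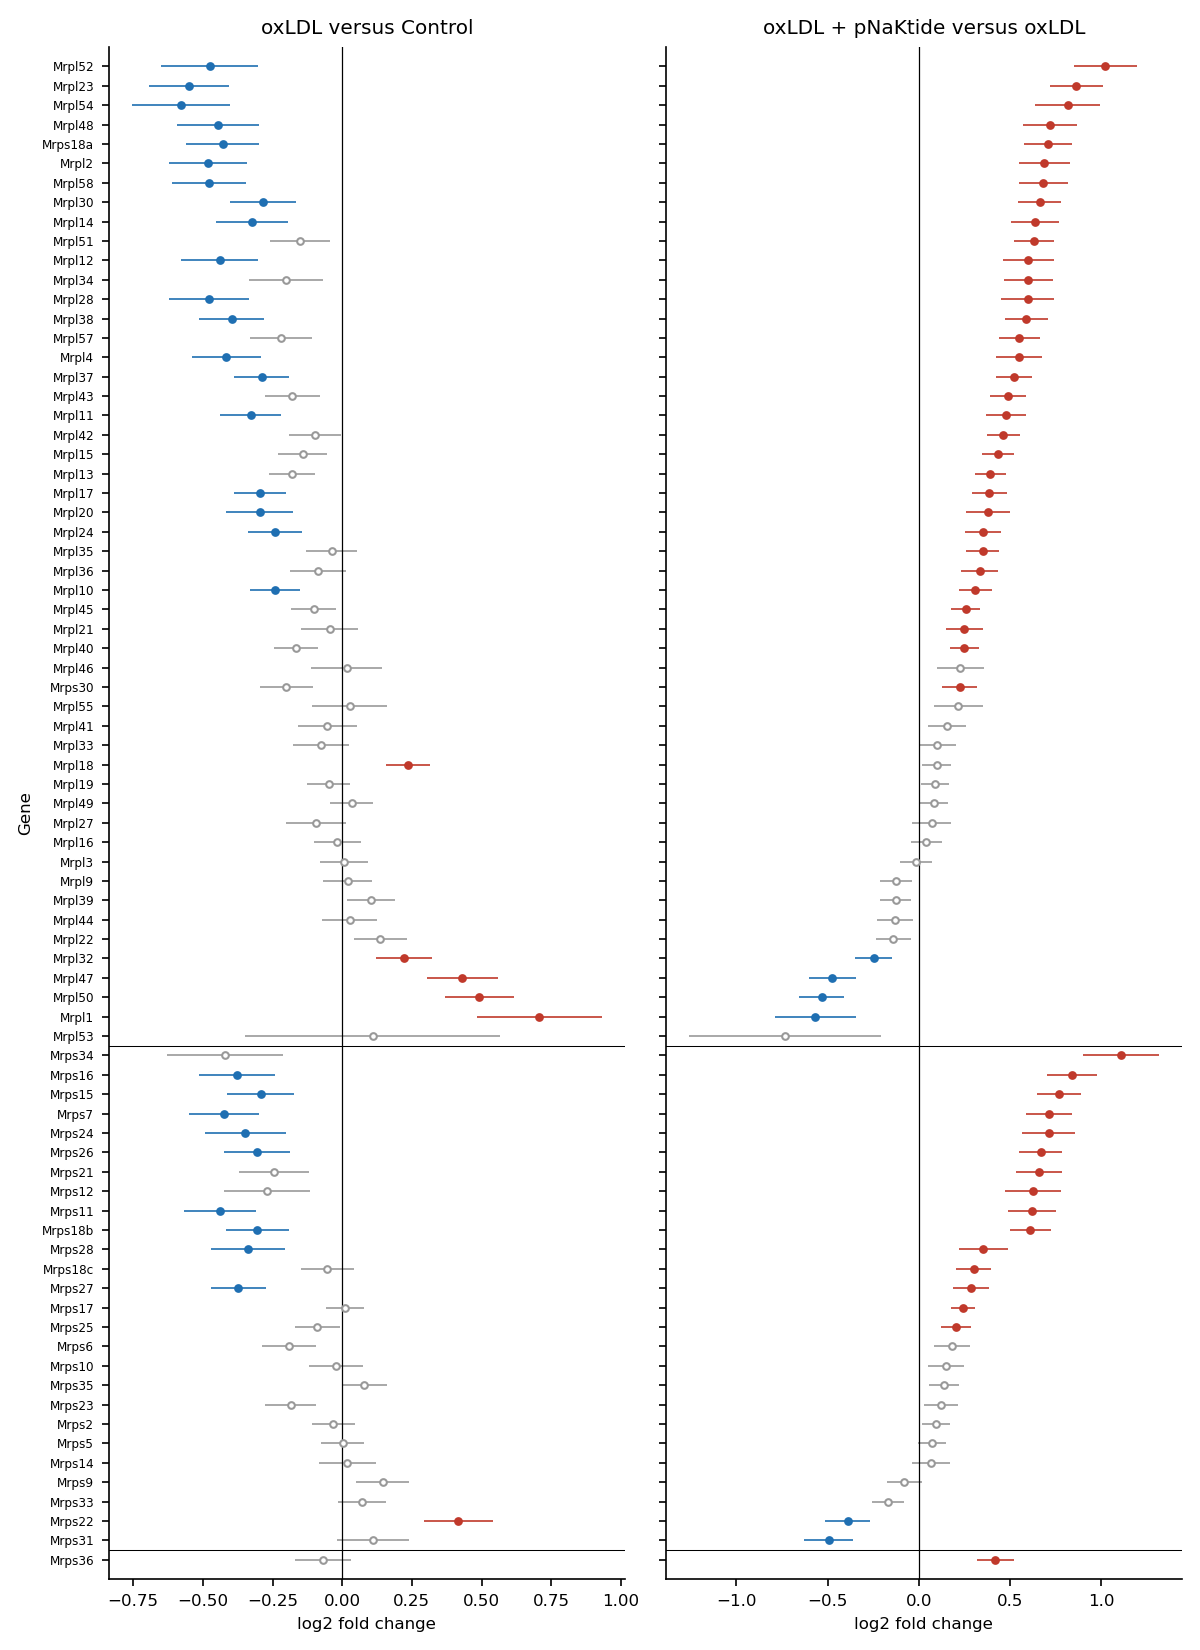
Log2 fold change (x axis, with SE) of each of the 78 genes (y axis) for oxLDL against Control (left) and for oxLDL with pNaKtide against oxLDL (right), both of which use the oxLDL libraries. Red and blue points are higher and lower at an adjusted p under 0.1, open grey points are not called, and lines divide the large subunit, the small subunit and Mrps36. On the left 28 points are blue and 6 red, and on the right 48 are red and 6 blue.

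The calls differed with GC content. Of the 39 genes above their median GC content, 20 fell and 1 rose with oxLDL, and of the 39 below it 8 fell and 5 rose. Other genes differed with GC content in the same direction. Among other genes with a mean log2 CPM above 1 and a GC content under 45%, 70.2% rose, with a median log2 fold change of 0.45, while 3 of the 14 mitochondrial ribosomal genes in that range rose, 2 fell and their median was -0.01. At a GC content of 55% or more, 57% of 2873 other genes fell (median -0.31), beside 13 of 16 ribosomal genes (median -0.42). With the trend over GC content alone removed, 16 genes fell and 1 rose, beside 8.61% and 7.98% of all genes in that fit. With that over GC content and length removed 17 fell and 12 rose, beside 9.44% and 9.69% of all genes. Called in the same direction under all 3 were Mrpl11, Mrpl17, Mrpl23, Mrpl30, Mrpl48, Mrpl58 and Mrps16, which fell, and Mrpl18, which rose. Of these, Mrpl30 was called in 4 and Mrps16 in 8 of the 10 fits without 1 library.

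The trend removal used the longest annotated coding transcript, which need not be the one expressed, and it moved several of the values named above to near 0. Mrpl54 then changed by -0.05, Mrpl2 by -0.07 and Mrpl28 by -0.06 on the log2 scale with both trends removed, none of them called, and Mrpl1, Mrpl50 and Mrpl47 by 0.26, 0.13 and 0.21, none of them called either. Mrpl52 turned to 0.06 and Mrpl32 to -0.18, both of opposite sign to the value above. Mrpl23 kept -0.24 and Mrpl58 -0.45 (edgeR, adjusted p = 0.057 and 0.018). Of the 34 genes called, 10 were called in the same direction with both trends removed, 8 had the other sign and 1 of these, Mrpl14, was called in the opposite direction.

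**Figure D3:**
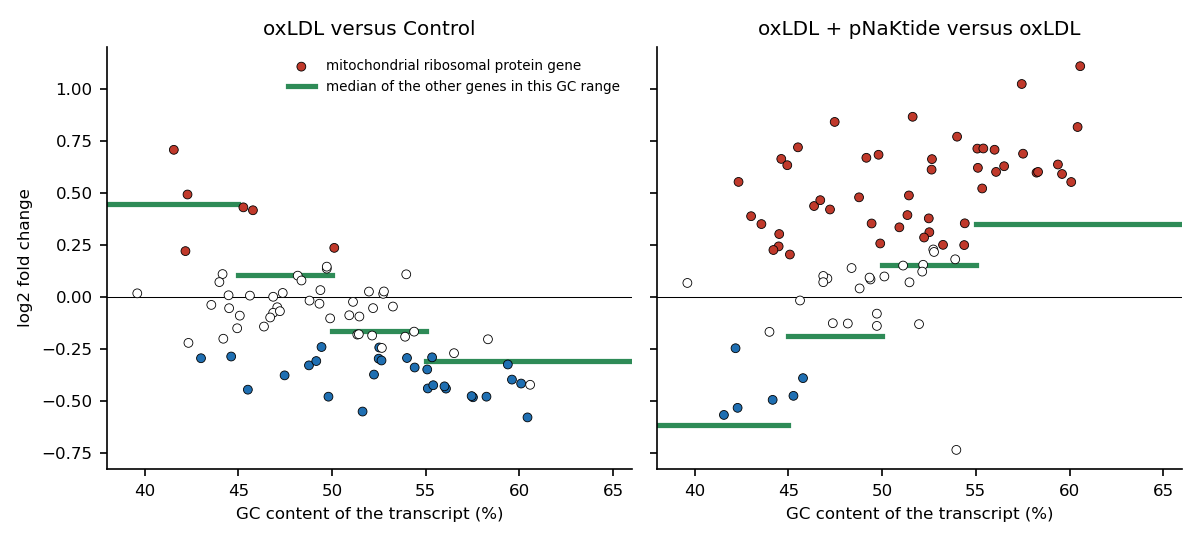
Log2 fold change (y axis) of each mitochondrial ribosomal protein gene against the GC content of its transcript in percent (x axis), for oxLDL against Control (left) and oxLDL with pNaKtide against oxLDL (right). Red points are higher and blue points lower at an adjusted p under 0.1, open points are not called, and green bars give the median of other genes with a mean log2 CPM above 1 in each GC range. Under 45% GC the bar lies at 0.45 on the left, with a median of -0.01 for the ribosomal genes, and at -0.61 on the right, with a median of 0.23.

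The next comparison asked what pNaKtide changed in cells that also had oxLDL, against the same oxLDL libraries. Here 48 of the 78 genes rose and 6 fell by edgeR's test (adjusted p under 0.1), beside 22.1% and 26.1% of all genes tested. The median log2 fold change was 0.32, against -0.09 for all genes. The groups did not overlap for 39 genes above and 1 below, beside 13.6% and 14.8% of all genes. Scaling by library size alone took the median of all genes to -0.30 and gave 34 higher and 15 lower, beside 13.4% and 38.1% of all genes in that fit. Among genes with more than 14 counts in every library 48 were higher and 7 lower, beside 35% and 36.8% of all such genes. Of the 9 adipocyte markers, Adipoq, Cebpa, Cfd, Retn and Cidec were higher and none was lower by edgeR's test, and of the 5 preadipocyte markers Dlk1 was higher and Pdgfra lower. Cidec, a lipid droplet protein, had medians of 6077 CPM in Control, 4247 with oxLDL and 6100 with both, and Cfd, the adipsin gene, 724, 440 and 819 CPM. Of the adipocyte markers not called, Lpl had 3882, 4278 and 4303 CPM and Fabp4 2327, 2485 and 2615 in the same order. Plin1 had 579.7, 562.8 and 603.8 CPM and Pparg 171.3, 142.2 and 166.7. The part of these changes in the results for the 78 genes was not tested.

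Mrps34, a small-subunit protein of mitochondrial origin, changed most. It had 14.3, 15.5, 19.1, 19.9 and 15.8 CPM with oxLDL and 30.5, 29.8, 29.5, 51.5 and 41.7 with oxLDL and pNaKtide, a log2 fold change of 1.11 ± 0.21 (edgeR, adjusted p = 0.000122). No library of one group reached the other. Mrpl52, one of the genes with ETS letters before its start, had 22.5, 19.3, 25.8, 22.7 and 18.7 CPM with oxLDL and 30.8, 39.7, 43.6, 63.6 and 44.4 with both, a log2 fold change of 1.02 ± 0.17 (edgeR, adjusted p = 4.62e-05).

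Replicate 4 of the group with oxLDL and pNaKtide was the highest library for Mrps34, Mrpl52, Mrpl23 and Mrps16. Mrpl23 had 23.6, 23.1, 21.3, 36.4 and 22.2 CPM there, all above the oxLDL libraries (log2 fold change 0.87 ± 0.14; edgeR, adjusted p = 3.81e-05). Mrps16, needed to assemble the small subunit, had 65.0, 63.8, 59.0, 104 and 81.3 CPM against 38.5, 36.7, 48.7, 45.1 and 38.7 (log2 fold change 0.84 ± 0.14; edgeR, adjusted p = 3.30e-05). Without that replicate 47 genes rose and 4 fell, beside 19.9% and 21.5% of all genes. Mrpl54 rose by 0.82 ± 0.18 and Mrps15 by 0.77 ± 0.12 on the log2 scale (edgeR, adjusted p = 0.000481 and 2.33e-05).

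The genes of the stalk, the release factor and the decoding centre rose too. Mrpl12 had 260, 252, 297, 365 and 297 CPM with oxLDL and pNaKtide, all above the oxLDL libraries given above (log2 fold change 0.60 ± 0.14; edgeR, adjusted p = 0.000821). Mrpl58 had 25.8, 28.3, 27.5, 38.2 and 28.0 CPM (0.68 ± 0.13; edgeR, adjusted p = 0.000160). Mrpl11, Mrpl10 and Mrps12 changed by 0.48 ± 0.11, 0.31 ± 0.09 and 0.63 ± 0.16 (edgeR, adjusted p = 0.000758, 0.00565 and 0.00151). The S18 paralogs Mrps18a, Mrps18b and Mrps18c rose by 0.71 ± 0.13, 0.61 ± 0.11 and 0.30 ± 0.10, and Mrps30 by 0.23 ± 0.10 (edgeR, adjusted p = 0.000105, 9.09e-05, 0.0104 and 0.0567). Mrps36, outside the ribosome, rose from 17.5 ± 2.12 to 23.4 ± 1.33 CPM (0.42 ± 0.10; edgeR, adjusted p = 0.00117).

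The 6 that fell are set beside their oxLDL values above, which come from the same oxLDL libraries. Mrpl50 had 36.6, 37.99, 45.9, 27.5 and 28.3 CPM with oxLDL and pNaKtide, a log2 fold change of -0.53 ± 0.12 (edgeR, adjusted p = 0.000844). Mrpl1 had 19.3, 19.3, 24.9, 8.28 and 12.4 CPM, widely spread, and changed by -0.57 ± 0.22 (edgeR, adjusted p = 0.0426). Mrpl47 fell without overlap, by 0.47 on the log2 scale (SE 0.13; edgeR, adjusted p = 0.00361). Mrps31, of the small subunit and not called with oxLDL, had 34.7, 33.5, 36.1, 36.5 and 32.96 CPM with oxLDL and 22.9, 21.5, 34.1, 19.5 and 24.4 with both, where replicate 3 lay among the oxLDL libraries (-0.49 ± 0.13; edgeR, adjusted p = 0.00323). Mrps22 and Mrpl32 changed by -0.39 ± 0.12 and -0.25 ± 0.10 (edgeR, adjusted p = 0.0112 and 0.0502). The lowest value, -0.73 ± 0.53, was that of Mrpl53, which held under 1 CPM in these groups and was not called (edgeR, adjusted p = 0.279). Of the 10 fits without 1 library of the compared groups, Mrpl32 was called in 6, and Mrpl1 and Mrps30 in 7.

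**Figure D4:**
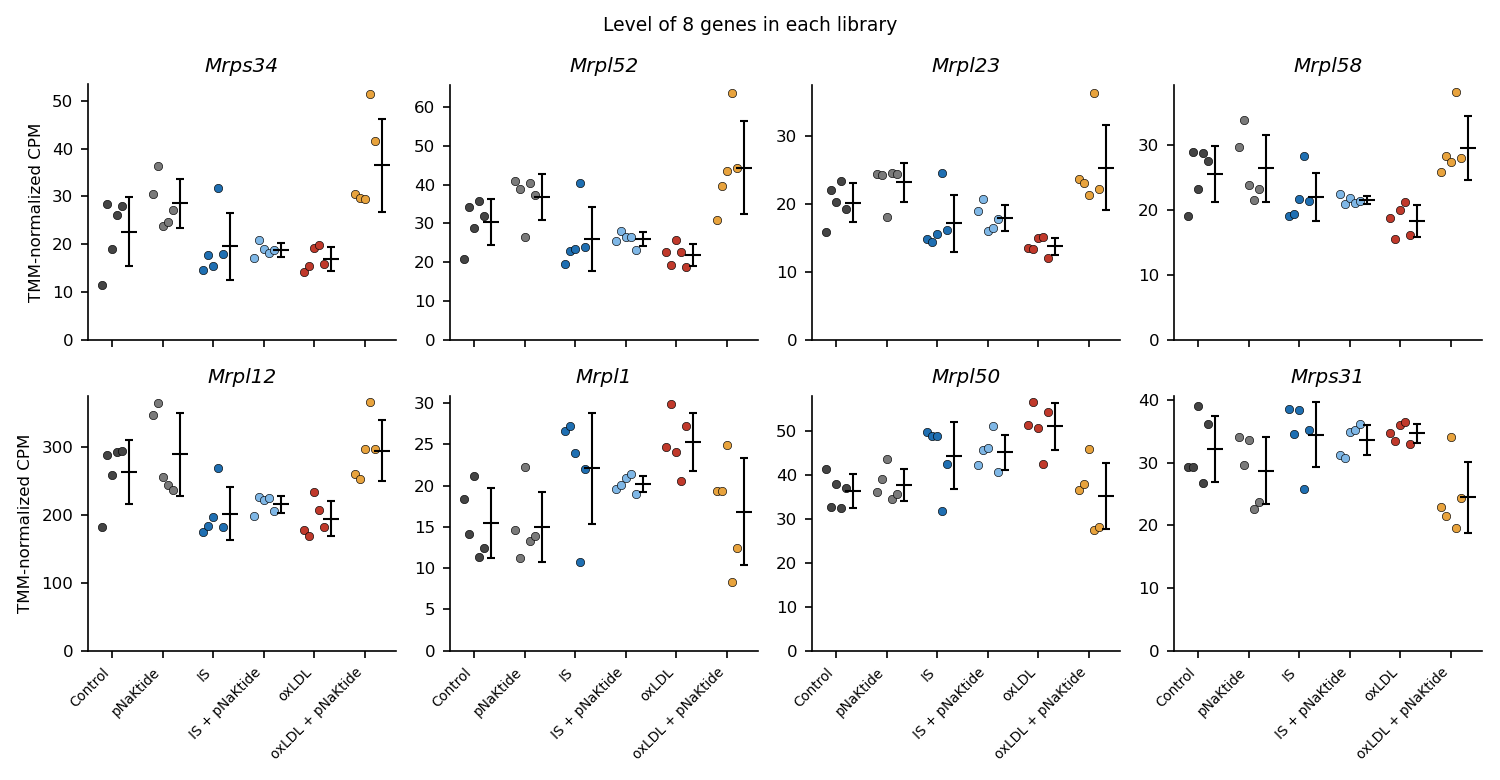
TMM-normalized CPM (y axis) of 8 genes in each library by group (x axis), with the mean and SD of the 5 libraries beside the points. Mrps34, Mrpl52, Mrpl23, Mrpl58 and Mrpl12 lie higher in every library with oxLDL and pNaKtide than in any with oxLDL, and Mrpl1, Mrpl50 and Mrps31 have lower means there. For Mrps34 and Mrpl12, Control replicate 1 is the lowest Control library and IS replicate 4 the highest IS library.

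By class, 18 of 30 large-subunit genes with a bacterial counterpart rose and 3 fell (median log2 fold change 0.34), and of 21 of mitochondrial origin 14 rose and 1 fell (0.47). In the small subunit 11 of 17 genes with a bacterial counterpart rose and none fell by edgeR (0.35), and of 9 of mitochondrial origin 4 rose and 2 fell (0.14). The classes are those used for oxLDL, with Mrps18b placed by sequence and Mrps18a by its site in the ribosome. Of the 41 risers with a promoter window, 17 held ETS, 19 Sp1, 10 YY1 and 8 NRF1 letters, of the 6 that fell 1, 2, 1 and 1, and of the 22 not called 8, 8, 1 and 4.

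Rises were also called in genes whose longest annotated coding transcript was poor in GC, a range where most other genes fell. Under 45% GC, 78.2% of 2848 other genes with a mean log2 CPM above 1 fell and 3.72% rose (median -0.61), whereas of the 14 mitochondrial ribosomal genes 8 rose and 4 fell (median 0.23). The 8 were Mrpl17, Mrpl30, Mrpl35, Mrpl51, Mrpl57, Mrps17, Mrps18c and Mrps30. Their longest coding transcripts ran from 820 bases for Mrps18c to 7300 for Mrpl17, with 3427 for Mrpl51, and need not be those expressed. The other genes were not matched for length, and the part of library composition in these rises was not tested. Mrpl51, at 44.94% GC, had 91.8, 88.2, 107, 96.4 and 99.5 CPM with oxLDL and 138, 131, 141, 185 and 155 with both, without overlap (0.63 ± 0.11; edgeR, adjusted p = 4.65e-05). At 55% GC or more all 16 rose by edgeR's test, beside 61.1% of the other genes, with medians of 0.63 and 0.35.

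With the trend over GC content alone removed, 46 genes rose and 1 fell, beside 16.4% and 23.1% of all genes in that fit. With that over GC content and length removed 31 rose and 18 fell, beside 14.9% and 21.5% of all genes. There were 25 genes that rose under all 3, among them Mrps34 (0.38), Mrpl52 (0.19), Mrpl23 (0.35), Mrps16 (0.98), Mrps15 (0.23), Mrpl58 (0.68), Mrpl11 (0.57) and Mrpl51 (1.00), each given as log2 fold change with both trends removed. No gene fell under all 3. Values with both trends removed depend on the longest annotated coding transcript, which need not be the one expressed. They were larger than the values without removal for Mrps16, Mrpl11 and Mrpl51, whose longest coding transcripts have 2572, 3045 and 3427 bases. Mrpl54 (-0.03), Mrps12 (-0.02) and Mrpl28 (-0.01) came to near 0, as did Mrpl1 (0.02), and Mrpl32 turned to a rise of 0.27. Of the 54 genes called, 27 were called in the same direction with both trends removed, 13 had the other sign and 7 of these were called in the opposite direction, namely Mrpl14, Mrpl20, Mrpl21, Mrpl32, Mrpl34, Mrpl40 and Mrps28.

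Compared with Control, cells with oxLDL and pNaKtide had 17 of the 78 genes higher and none lower at an adjusted p under 0.1 by edgeR, beside 2.04% and 3.16% of all genes tested. At an unadjusted p under 0.05 there were 30 of the 78, and 17.2% of all genes. The median log2 fold change was 0.16, against -0.03 for all genes, and 11 genes lay above Control without overlap, beside 1.83% of all genes. Mrps34 had 11.49, 28.5, 19.0, 26.1 and 28.0 CPM in Control, all below the 29.5 CPM of the lowest library with oxLDL and pNaKtide (0.69 ± 0.20; edgeR, adjusted p = 0.0608). Mrps15 (0.48 ± 0.12) and Mrpl51 (0.48 ± 0.11) lay above Control without overlap as well (edgeR, adjusted p = 0.0242 and 0.0120).

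Mrpl52, Mrps16 and Mrps21 rose by 0.55 ± 0.17, 0.47 ± 0.14 and 0.42 ± 0.13 (edgeR, adjusted p = 0.0740, 0.0535 and 0.0625). Mrpl18 was higher than Control with oxLDL both without pNaKtide (0.24) and with it (0.34 ± 0.08; edgeR, adjusted p = 0.0186). The count of 17 changed with single libraries and with the model. It was 5 without Control replicate 1, 6 without replicate 4 and 10 without replicate 5 of the group with both agents, 8 and 9 without Control replicates 3 and 5, beside 2.51% to 3.9% of all genes in these fits. With only the compared groups in the model it was 0 by edgeR, beside 0.0546% of all genes, with 28 of the 78 at an unadjusted p under 0.05. Mrpl52 and Mrps21 were called in 5 of the 10 fits without 1 of these libraries, and Mrps34 and Mrps16 in 6. With both trends removed 18 were called, of which 12 were called above too, and with the GC trend alone removed 21, beside 9.95% and 10.1% of all genes. Of the cell markers, Retn, an adipocyte gene, was higher and no other was called by edgeR.

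With IS, none of the 78 genes was called against Control by edgeR, beside 7.94% of all genes tested, while 19 had an unadjusted p under 0.05, as did 25% of all genes, and DESeq2 called 9, beside 15.7% of all genes. The median log2 fold change was -0.08. The group was divided by 1 library. Mrpl54 had 23.3, 23.5, 26.6, 45.4 and 24.7 CPM, Mrps34 had 14.6, 17.7, 15.5, 31.9 and 18.04, and Mrpl1 had 26.6, 27.2, 24.0, 10.7 and 22.0, with IS replicate 4 outside the range of the other four each time. Without IS replicate 4, 33 genes were called, beside 34.5% of all genes, and without Control replicate 1 there were 29, beside 33.2%. Without both there were 44, of which 40 were lower and 4 higher, beside 45.4% of all genes. With both trends removed 3 were called, and with the GC trend alone removed 1, beside 5.69% and 1.7% of all genes. Of the 9 adipocyte markers, Adipoq, Cebpa, Retn and Cidec were lower with IS by edgeR, and without both libraries 7 of the 9 were lower, as were 3 of the 5 preadipocyte markers. The part of these marker changes in the results was not tested.

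**Figure D5:**
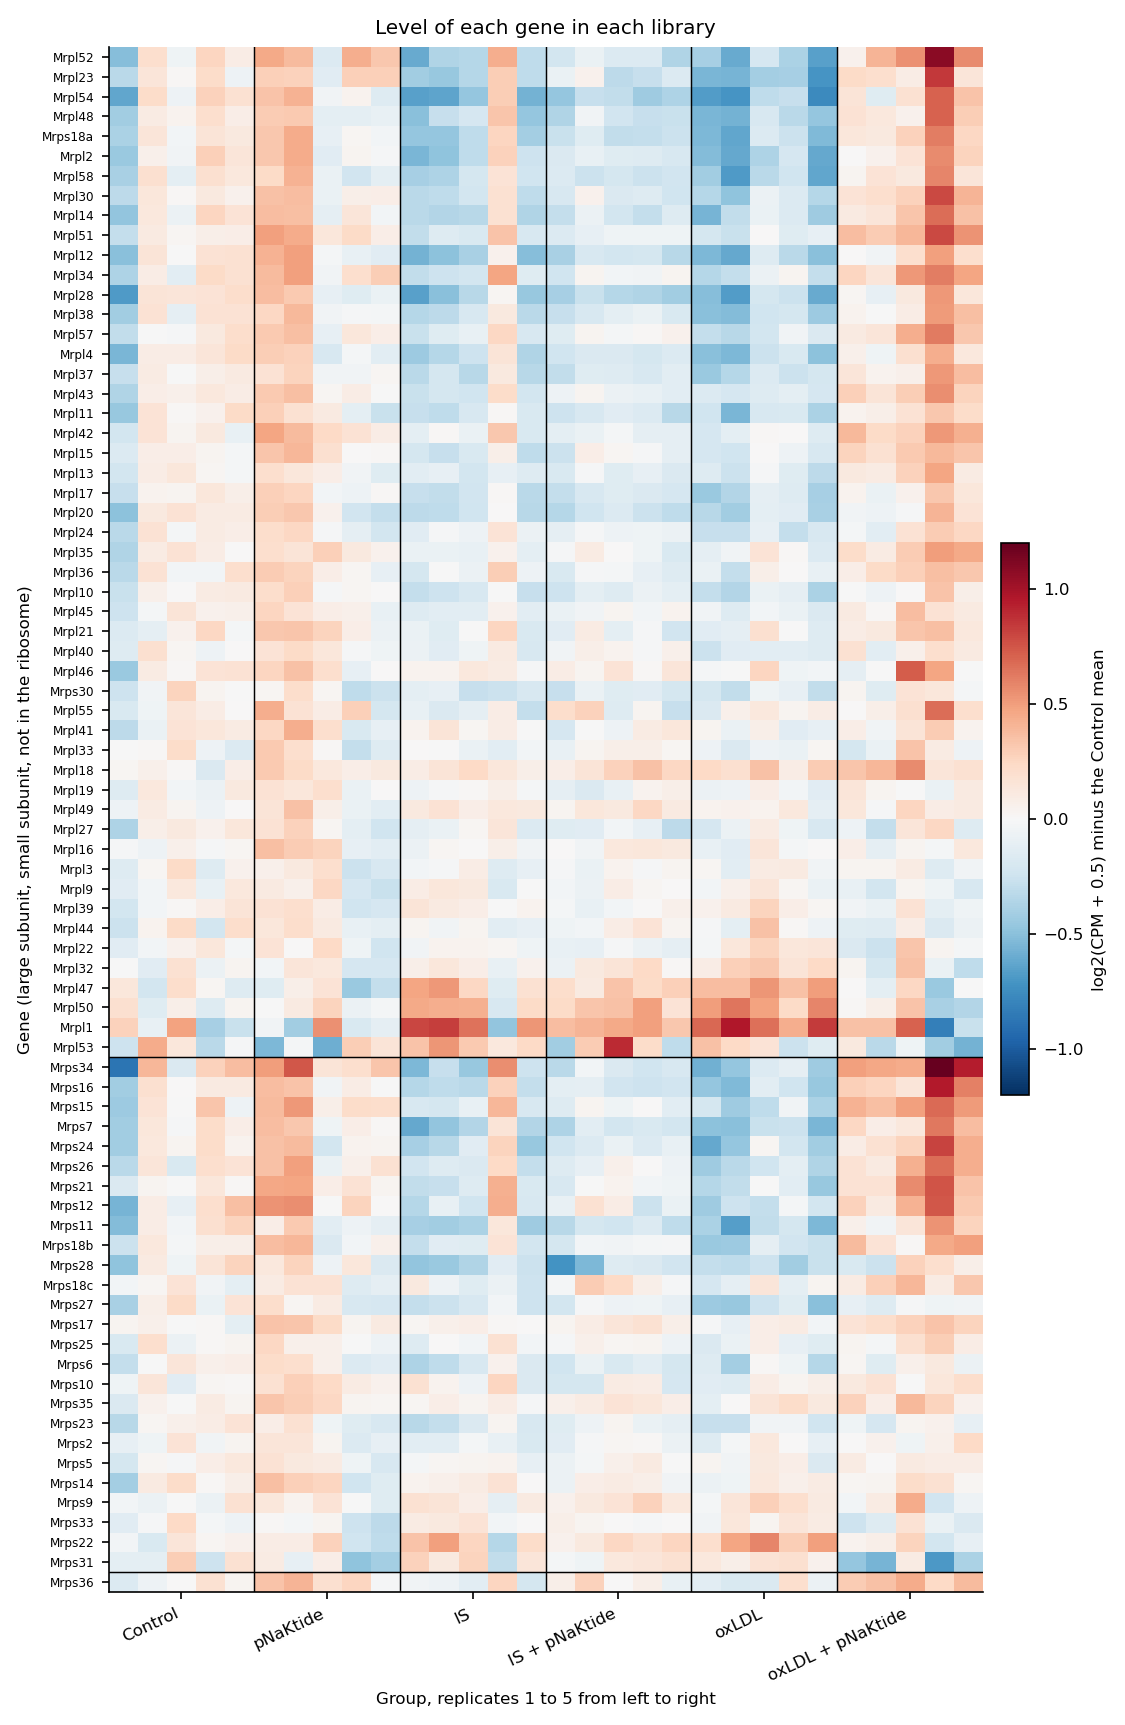
Level of each of the 78 genes (y axis) in each of the 30 libraries (x axis, grouped), as log2(CPM + 0.5) minus the mean of the 5 Control libraries. Lines divide the groups and the large subunit, the small subunit and Mrps36, and genes are ordered by their change between the oxLDL groups. The libraries with oxLDL and pNaKtide have 46 to 72 genes above the Control mean and those with oxLDL 13 to 38, and Control replicate 1 (5 genes) and IS replicate 4 (58 genes) differ from the rest of their groups.

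Adding pNaKtide to IS called none of the 78 genes and 0% of all genes tested by edgeR, with 1 of the 78 and 2.8% of all genes at an unadjusted p under 0.05 and 0 of the 78 by DESeq2. The median log2 fold change was 0.02. IS with pNaKtide against Control also called none by edgeR, beside 0.358% of all genes, with 10 at an unadjusted p under 0.05 (20% of all genes), 3 by DESeq2 (7.38% of all genes) and 27 without Control replicate 1 and IS replicate 4, beside 32.4% of all genes in that fit, where 6 of the 9 adipocyte markers were lower too. Given alone, pNaKtide called none by edgeR, beside 0.00497% of all genes, with 8 at an unadjusted p under 0.05 (6.12% of all genes), 1 by DESeq2 (0.283% of all genes) and a median log2 fold change of 0.10. In that group Mrps34 had 30.6, 36.4, 23.9, 24.7 and 27.3 CPM, a spread that overlapped Control.

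The change with pNaKtide under oxLDL was tested against the change with pNaKtide under IS. The difference was positive for 37 of the 78 genes and negative for 3 (edgeR, adjusted p under 0.1), beside 13.9% and 15.4% of all genes tested, with a median of 0.31 on the log2 scale. It was 1.15 ± 0.29 for Mrps34, 1.02 ± 0.24 for Mrpl52, 0.85 ± 0.19 for Mrps16 and 0.79 ± 0.20 for Mrpl23 (edgeR, adjusted p = 0.0117, 0.0101, 0.00964 and 0.0120). The negative ones were Mrpl50 (-0.56 ± 0.17), Mrps31 (-0.45 ± 0.19) and Mrpl47 (-0.43 ± 0.18), with edgeR adjusted p = 0.0247, 0.0765 and 0.0825. Without IS replicate 4 there were 30 such genes, beside 18.8% of all genes. With both trends removed 21 were positive and 4 negative, beside 7.23% and 9.66% of all genes. Of the cell markers, the difference was positive for Cfd and Retn of adipocytes and for Dlk1 of preadipocytes and negative for Pdgfra of preadipocytes by edgeR's test, and their part in the result was not tested. Without replicate 4 of the group with oxLDL and pNaKtide, Mrps31 and Mrpl47 were not called (edgeR, adjusted p = 0.183 and 0.204).

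Other genes of mitochondrial translation were called in both directions. Of the 5 proteins of this ribosome that carry other names, Aurkaip1 and Gadd45gip1 fell with oxLDL and Ptcd3 rose, while Dap3 and Chchd1 were not called. Gadd45gip1, a large-subunit protein, went from 28.7 ± 6.09 to 20.7 ± 2.28 CPM with oxLDL (edgeR, adjusted p = 0.0201) and to 32.1 ± 7.75 CPM with pNaKtide added, above all oxLDL libraries (edgeR, adjusted p = 0.000993). Ptcd3, of the small subunit, went from 89.7 ± 13.8 to 116 ± 8.02 CPM and then to 89.2 ± 15.5 (edgeR, adjusted p = 0.0290 and 0.0158), and its second change had the opposite sign, 0.05 on the log2 scale, with both trends removed.

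Of 15 translation factors, 6 rose and 3 fell with oxLDL, and 3 rose and 8 fell when pNaKtide was added to it. Oxa1l, which inserts newly made proteins into the inner membrane, went from 100 ± 15.1 to 69.7 ± 6.22 CPM with oxLDL and to 115 ± 16.0 with both (edgeR, adjusted p = 0.00749 and 2.43e-05). Guf1, a GTPase of mitochondrial translation, went from 10.4 ± 2.76 to 16.8 ± 2.44 and to 10.7 ± 2.38 CPM (edgeR, adjusted p = 0.00979 and 0.00456). Mtrf1l, a release factor, changed by -0.77 ± 0.18 when pNaKtide was added (edgeR, adjusted p = 0.00105).

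The 20 mitochondrial aminoacyl-tRNA synthetases and their partners had 6 higher and 6 lower with oxLDL and 6 higher and 7 lower with pNaKtide added. Aars2 fell from 21.0 ± 2.34 to 14.9 ± 0.908 CPM and stood at 24.6 ± 2.86 with both (edgeR, adjusted p = 0.00894 and 5.56e-05), whereas Rars2 rose from 21.2 ± 2.70 to 29.6 ± 4.12 CPM and stood at 22.0 ± 3.37 (edgeR, adjusted p = 0.00818 and 0.00424). Nars2 changed by -0.77 ± 0.17 with pNaKtide added (edgeR, adjusted p = 0.000433). Of 25 assembly factors, 3 rose and 5 fell with oxLDL, and 5 rose and 5 fell with pNaKtide added. The helicase Ddx28 fell from 41.1 ± 6.60 to 31.0 ± 3.29 CPM with oxLDL and stood at 40.0 ± 3.09 with both, and Mterf3 rose from 11.1 ± 2.74 to 18.9 ± 2.78 and stood at 10.9 ± 2.97 (edgeR, adjusted p = 0.00789 and 0.00251 for Ddx28, 0.00933 and 0.00213 for Mterf3). Mpv17l2 rose by 0.82 ± 0.16 and Mettl15, which methylates the small-subunit RNA, changed by -0.79 ± 0.16 with pNaKtide added (edgeR, adjusted p = 0.000136 and 0.000211). The 4 lists had median log2 fold changes of 0.17, -0.27, -0.07 and 0.09 in that comparison, in the order described, beside 0.32 for the 78 genes and -0.09 for all genes tested. Their counts stand beside 18.1% of all genes higher and 18% lower with oxLDL, and 22.1% and 26.1% with pNaKtide added. In the same order, 20%, 40%, 30% and 12% of a list rose and 40%, 20%, 30% and 20% fell with oxLDL, and 40%, 20%, 30% and 20% rose and 20%, 53.3%, 35% and 20% fell with pNaKtide added. The lists are short, and none was tested against other genes.

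A pair of the genes, Mrpl46 and Mrps11, lies head to head on chromosome 7, with annotated starts 412 bases apart and overlapping gene models, a pair chosen after its values were seen. With oxLDL, Mrps11 changed by -0.44 and was called, while Mrpl46 changed by 0.02 and was not. With pNaKtide added, Mrps11 rose by 0.62 and Mrpl46, at 0.23, was not called. The difference between the pair was not tested.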

How the data were processed

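RNA sequencing of 30 libraries of 3T3-L1 cells, 6 groups of 5, was analysed. Per the labels and methods, stranded mRNA libraries were sequenced as paired reads, trimmed with Trimmomatic 0.38, aligned to GRCm38 with HISAT2 2.1.0 and counted per gene with GenomicAlignments by the authors, and the counts were deposited unnormalized and without pooling. The authors' FPKM values, deposited beside them, are per kilobase of gene and scaled to depth. Annotation release, strand setting and gene lengths were not given in the sources used here. DESeq2 1.20.0 is named in the submitters' processing notes. A table of normalized counts was not used. The labels name 3T3 cells, though their RNA text speaks of adipose tissue.

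Genes were named by Ensembl identifier from GENCODE M21 (54079 of 54232 with a symbol), which also gave positions, the length and GC content of the longest coding transcript and neighbours. After TMM scaling, the genes with more than 14 counts in all entered 1 model of the 6 groups in edgeR 4.0.16 (robust quasi-likelihood F test, two-sided, Benjamini-Hochberg over all genes tested, threshold 0.1) in R 4.3.3. CPM are TMM-normalized, and log2 CPM used a prior count of 2. Total counts set the precision, and the common biological coefficient of variation was 14.0%. Alternatives were DESeq2 1.42.0, its size factors, scaling by library size alone, 3 other filters (above 14 counts in each library, filterByExpr, at least 1 count), a threshold of 0.05, the replicate number as a block, limma 3.58.1 on log2(FPKM + 1) at a mean FPKM of at least 0.5, only the compared groups in the model, each library left out, Control replicate 1 and IS replicate 4 left out, and mgcv 1.9.3 offsets removing the trends of every library with GC content and length. A fit removing the trend over GC content alone was chosen after seeing the data. The scripts were tested on simulated data.

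The members, lists, tests and alternatives were chosen with earlier results of these data known. Genes named are, per comparison, at most 6 called each way, taken by size of change, the 3 highest and 3 lowest in FPKM, Mrpl10, Mrpl11, Mrpl12, Mrpl58, Mrps12, Mrps18a, Mrps18b, Mrps18c, Mrps30 and Mrps36, and the most significant gene of each other list, each way, in both oxLDL comparisons, and members next to the count limit. Others named in groups or as a pair were chosen after their values were seen. The lists were written from general knowledge, and Mtrfr and Mtres1 were not found by symbol. No pair of libraries of a group was a duplicate (lowest chi-square per degree of freedom 1.30 over 60 pairs).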

Additional observations from a re-analysis of the deposited data

Results flagged for a closer look

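Within a group of 5 libraries, 1 library stood apart from the other four by Dixon's criterion in 25 of 192 groups, which were those of 31 named genes and of the summed level. Chance gives about 1 in 20 such groups, and the groups are not independent because the same libraries enter for each gene. IS replicate 4 accounted for 13 of the 25. It stood above the other IS libraries in the summed level (4443 CPM) and in Mrpl54 (45.38 CPM), Mrpl23 (24.61), Mrpl58 (28.28), Mrpl52 (40.4), Mrps34 (31.85), Mrps16 (64.54), Mrps15 (46.32), Mrpl51 (135.2), Mrps21 (63.04), Mrpl12 (269.2), Mrps12 (31.38) and Mrps18a (144.9). Control replicate 1 stood below the other Control libraries in the summed level (3364 CPM), Mrpl28 (65.72 CPM) and Mrpl51 (87.3 CPM), and Control replicate 4 in Mrpl18 (41.89 CPM). Replicate 4 of the group with oxLDL and pNaKtide stood above its group in Mrpl23 (36.42 CPM), Mrpl58 (38.24) and Mrps18a (186.4). Replicate 3 with pNaKtide alone stood apart in Mrpl23 (18.11 CPM) and Mrpl52 (26.43 CPM). With IS and pNaKtide, replicate 2 stood apart in Mrps18a (109.7 CPM) and replicate 1 in Mrps18b (25.43 CPM). Replicate 4 with oxLDL stood apart in Mrps36 (21.19 CPM).

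The change with pNaKtide differed between cells with oxLDL and cells with IS for 40 of the 78 genes, by edgeR's test of the difference itself at an adjusted p under 0.1. On the log2 scale the difference was 1.15 for Mrps34, 1.02 for Mrpl52, 0.85 for Mrps16, 0.82 for Mrpl54, 0.79 for Mrpl23 and 0.79 for Mrps15. It was -0.56 for Mrpl50, -0.45 for Mrps31 and -0.43 for Mrpl47. IS replicate 4, which stands apart for several of these genes, is one of the 20 libraries of this difference, and 30 genes were called without it.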

How the results depend on the processing

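The count for oxLDL with pNaKtide against oxLDL stayed within 1.5 times of 54 under every alternative and was 51 to 56 with single libraries left out, but not always with the same genes or directions. With the GC and length trends removed it split into 31 higher and 18 lower, against 48 and 6, and 27 of the 54 were called in the same direction. The count for oxLDL against Control was 17 with the GC trend alone removed (16.6% of all genes), 48 without Control replicate 1 and IS replicate 4, and 22 to 44 with single libraries left out, at 22 without Control replicate 2, Control replicate 4 or oxLDL replicate 2. For oxLDL with pNaKtide against Control it was 6 at a minimum of 1 count, 6 at an adjusted p of 0.05, 0 with only the compared groups in the model (28 at an unadjusted p under 0.05), beside 2.24%, 2.93% and 0.0546% of all genes, and 5 to 19 with single libraries left out. For the difference between the changes with pNaKtide it was 25 with the GC and length trends removed and 30 to 43 with single libraries left out. Against a count of 0 for IS it was 9 by DESeq2, 4 with library size alone, 5 with more than 14 counts in every library, 4 with filterByExpr, 1 by limma, 3 with the GC and length trends and 1 with the GC trend removed, beside 15.7%, 12.6%, 21%, 17.1%, 13%, 5.69% and 1.7% of all genes in those fits, and it was 44 without Control replicate 1 and IS replicate 4, and 0 to 33 with single libraries left out. Against 0 for IS with pNaKtide versus Control it was 3 by DESeq2, 1 with only the compared groups, 3 with the GC and length trends removed, 27 without both libraries, beside 7.38%, 5.72%, 3.06% and 32.4% of all genes, and 0 to 23, the highest without Control replicate 1. Given alone, pNaKtide had 1 by DESeq2 (0.283% of all genes). With single libraries left out, the count was 0 to 0 for pNaKtide alone and for IS with pNaKtide against IS. The cause of these changes was not tested.

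Same-numbered libraries did not all deviate together (37 of 75 pairs correlated over 0.1, from -0.661 to 0.79), so the replicate numbers were not taken as pairs. At most 3 of 5 libraries of a group correlated best with their own number. With a replicate block the count was 38 for oxLDL, 8 for IS, 55 and 19 for oxLDL with pNaKtide against oxLDL and Control, 3 for IS with pNaKtide against Control, and 44 for the difference, beside 38.8%, 17%, 49.6%, 8.21%, 6.64% and 33.2% of all genes in that fit.

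With the GC and length trends removed, 8 genes called with oxLDL, 13 called with pNaKtide added and 7 called for the difference had the other sign. The values that follow are those of genes named by the rule given for naming genes. Genes named outside it, such as Mrpl14, Mrpl20, Mrpl21, Mrpl34, Mrpl40 and Mrps28, are left out. Among genes named by the rule and called before or after the removal, log2 values of opposite sign were -0.18 for Mrpl32 and 0.064 for Mrpl52 with oxLDL, and, with pNaKtide added to it, -0.026 for Mrpl54, 0.016 for Mrpl1, 0.27 for Mrpl32, -0.022 for Mrps12, -0.014 for Mrpl28, -0.38 for Mrps6, which edgeR did not call before the trends were removed, and 0.048 for Ptcd3, which is not one of the 78. The difference for Mrpl54 was -0.0087. With the GC trend alone removed they were -0.19 and 0.28 for Mrpl32 and 0.068 for Ptcd3. Genes of few counts such as Mrpl53 limit what this depth can show.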
